A study of Mus musculus with 12 samples.

Results

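The genes described here are MYC and 39 genes for the making of ribosomes, 40 in all among 32285 genes counted, chosen by symbol from a fixed list. Each of the 40 symbols matched 1 gene identifier, and all 40 passed the filter on low counts, which left 14113 genes for testing. By role, they are Myc itself, 2 subunits of RNA polymerase I, 6 nucleolar scaffold and regulator proteins, 3 proteins of the box C/D and 4 of the box H/ACA small nucleolar ribonucleoproteins, 10 small subunit factors and 14 large subunit factors. Their levels were measured by RNA-seq in wild-type mouse bone marrow-derived macrophages, primary macrophages grown from marrow. The cells were given 1 of 3 acids at 5 mM for 16 h, diluted from a stock in RPMI. These were itaconic acid (IA), MA, which is malonic acid, and MetSA, which is methylsuccinic acid. The control cells had medium alone (M). No stimulus beyond the acids is named for these libraries, and the labels do not state the mice's strain, age or sex. Each group had 3 biological replicates. Whether these came from separate animals is not stated, so p-values measure the spread between these samples, which may be partly technical.

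MYC is a transcription factor that binds DNA as a dimer with MAX, often at the E-box CACGTG, and many of its known targets serve ribosome biogenesis. Ribosomes begin in the nucleolus, where RNA polymerase I copies the ribosomal DNA into a long precursor RNA. Small nucleolar ribonucleoproteins modify that precursor, and assembly factors cut it, fold it and join it to ribosomal proteins to give the small and large subunits. Itaconic acid is a dicarboxylic acid that macrophages make themselves. Methylsuccinic acid is its saturated counterpart, with a methyl group in place of the methylene group, and malonic acid is a shorter dicarboxylic acid.

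Library totals ran from 46892488 to 54252486 counts. All 10 macrophage markers were above 1 CPM, with summed levels of 26042 to 28845 CPM in IA libraries, 29162 to 31237 in MA, 27355 to 33857 in MetSA and 25170 to 27481 in M, while of 8 lymphocyte markers 1 was above 1 CPM and Cd3g and Ncr1 stood at 0. Dendritic cell markers, of which 1 of 6 was above 1 CPM, summed to 7.22 to 9.30 CPM in IA, 2.85 to 3.65 in MA, 3.68 to 5.60 in MetSA and 1.98 to 3.42 in M libraries, and their part in the results was not tested. MetSA replicate 3 stood apart from the other MetSA libraries, with a chi-square per degree of freedom of 59.7 and 48.0 against replicates 1 and 2, where no other pair of replicates of any group was above 31.6. Without it, 24 of the 40 genes were called after MetSA, against 23 with it.

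Summed, the 40 genes held 0.151% ± 0.00052 of all counts after IA, 0.194% ± 0.0022 after MA, 0.165% ± 0.0043 after MetSA and 0.207% ± 0.0084 in medium (SD, n = 3 each). The 3 IA libraries, at 0.152%, 0.152% and 0.151%, were the lowest, and no library of any acid reached the lowest M library, at 0.198%. These shares are of library totals without TMM scaling factors. The factors were 0.927 to 0.935 in IA libraries, 1.02 to 1.05 in MA and 1.05 to 1.07 in M. The gap between MA and M libraries therefore holds for unscaled totals only. Without the factors, the median log2 fold change of all genes tested was also lower after IA, at -0.22 against -0.03 with them. Counts give each gene's part of a library, so fewer cells of a type and less RNA per cell cannot be told apart, and a change of the whole RNA pool is not seen.

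After IA, 27 of the 40 genes fell, none rose and 13 did not pass the test, where 17.3% of all genes tested fell and 17.9% rose, 35.2% in either direction (edgeR's quasi-likelihood test, Benjamini-Hochberg adjusted p under 0.05 over 14113 genes). After MetSA, 23 fell and none rose, where 8.53% of all genes fell and 12.6% rose, 21.2% in either direction. After MA, 11 fell and 1 rose, where 10.1% of all genes fell and 10.1% rose, 20.3% in either direction. The median log2 fold change of the 40 genes was -0.44 after IA, -0.17 after MA and -0.30 after MetSA, beside -0.03, -0.02 and -0.01 over all genes tested. Medians of the 40 genes were -0.36, -0.13 and -0.26 without M replicate 1, and -0.46, -0.23 and -0.35 without M replicate 3. Relative to the M mean, their median was 0.11, 0.01 and -0.08 in M libraries 1 to 3. It was -0.13, -0.20 and -0.17 in MA libraries 1 to 3. The MA count was the least stable, at 7 without MA replicate 2, 6 without M replicate 1 and up to 14 over the fits that each left out 1 library.

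**Figure D1:**
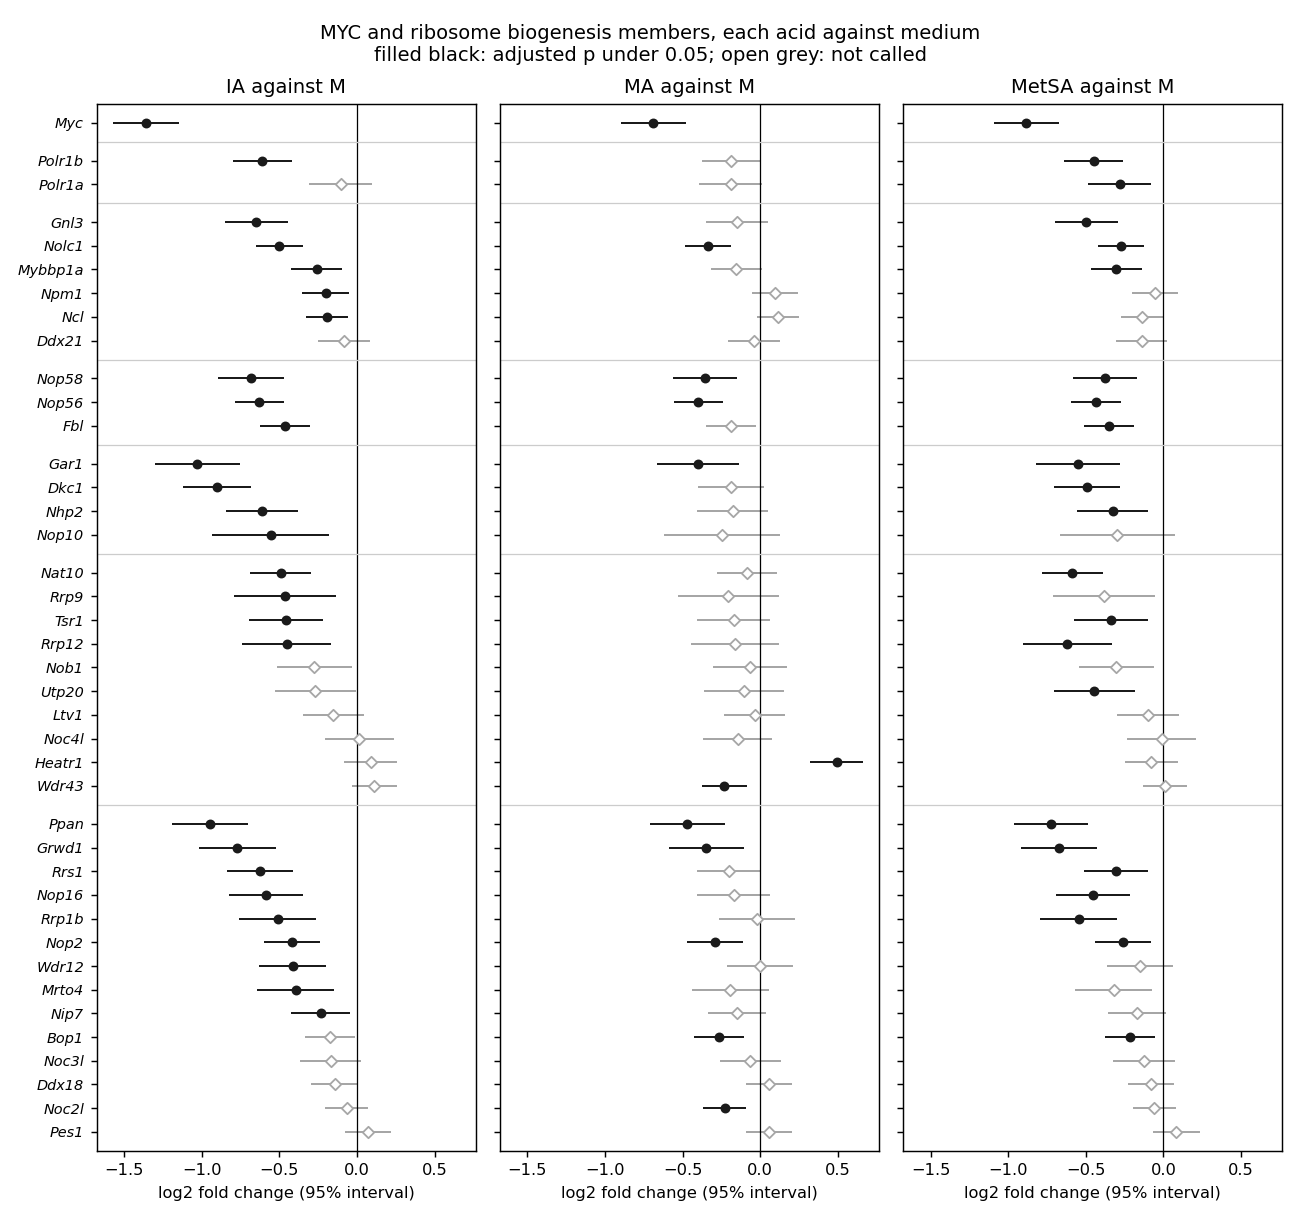
Log2 fold change of each of the 40 genes after IA, MA and MetSA against medium (x axis), ordered by role (y axis), with 95% intervals, filled where the gene was called and open where it was not. Most filled points lie left of 0 after IA (27 genes) and MetSA (23 genes), and Heatr1 after MA is the 1 filled point right of 0.

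Myc (ENSMUSG00000022346, chromosome 15, 61985391 to 61990374, mm10) stood at 11.9, 11.5 and 10.3 CPM in IA libraries 1 to 3, CPM being counts scaled to a common library size. It had 18.6, 18.0 and 17.1 CPM in MA libraries and 15.2, 14.8 and 16.9 CPM in MetSA libraries, against 32.9, 27.4 and 26.3 CPM in M libraries. Every library of every acid lay below the lowest M library, and the IA libraries lay below all MetSA and MA libraries. After IA, Myc fell by 61.0%, which is -1.36 on the log2 scale (SE 0.10, adjusted p = 2.28e-09). The log2 fold change was -0.88 after MetSA (SE 0.10, adjusted p = 1.28e-06) and -0.69 after MA (SE 0.10, adjusted p = 2.35e-05).

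Mycl, the paralog L-MYC, had 1.19, 1.90 and 2.11 CPM in IA libraries, 1.49, 1.25 and 1.54 CPM in MA libraries and 3.05, 2.21 and 2.63 CPM in MetSA libraries, against 9.63, 9.89 and 7.60 CPM in M libraries. It fell after each acid, with log2 fold changes of -2.38 (SE 0.20, adjusted p = 2.3e-08) after IA, -2.66 (SE 0.21, adjusted p = 1.05e-08) after MA and -1.78 (SE 0.20, adjusted p = 1.36e-06) after MetSA. All M libraries lay well above every acid-treated library. Mxd1, a MAX-dimerising repressor that competes with MYC, had 55.8, 64.2 and 56.0 CPM in IA libraries, 24.2, 23.7 and 21.6 CPM in MA libraries and 55.3, 47.8 and 43.7 CPM in MetSA libraries, against 26.7, 26.8 and 29.3 CPM in M libraries. It rose by a log2 fold change of 1.09 after IA (SE 0.09, adjusted p = 8.65e-09) and 0.83 after MetSA (SE 0.09, adjusted p = 7.68e-07), with no overlap with M libraries.

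Max, the shared partner of MYC and the MXD proteins, moved the same way as Mxd1. Its levels were 99.8, 109 and 106 CPM in IA libraries, 63.2, 61.1 and 65.8 CPM in MA libraries and 99.7, 96.1 and 92.9 CPM in MetSA libraries, against 69.3, 70.4 and 74.2 CPM in M libraries. Max rose by 0.55 on the log2 scale after IA (SE 0.06, adjusted p = 4.97e-07) and by 0.43 after MetSA (SE 0.06, adjusted p = 2.16e-05). After MA it stood at -0.17 (adjusted p = 0.0513), not called, and Mxd1 at -0.25 (adjusted p = 0.0489), a call that was lost without IA replicate 1 or 3, any 1 of the MA or M replicates or MetSA replicate 2 (adjusted p 0.0574 to 0.187). Of the 11 partners and antagonists tested, 4 fell and 2 rose after IA, 3 fell and 1 rose after MA, and 3 fell and 2 rose after MetSA. The share higher was 18.2% after IA and 9.09% after MA, near the 17.9% and 10.1% of all genes, and 18.2% after MetSA, beside 12.6%. The share lower was 36.4%, 27.3% and 27.3% after IA, MA and MetSA, beside 17.3%, 10.1% and 8.53% of all genes, and rests on few genes. The others that fell after IA were Mxd4 (-0.71), Mnt (-0.40) and Mxd3 (-1.52), all antagonists of MYC, and Mxi1, a further antagonist, rose after MA (0.38). These 4 were named after their values were seen. The MA count of lower genes was 1 without M replicate 1 and 5 without MetSA replicate 3, and with the replicate number as a block 4 partners rose after IA.

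**Figure D2:**
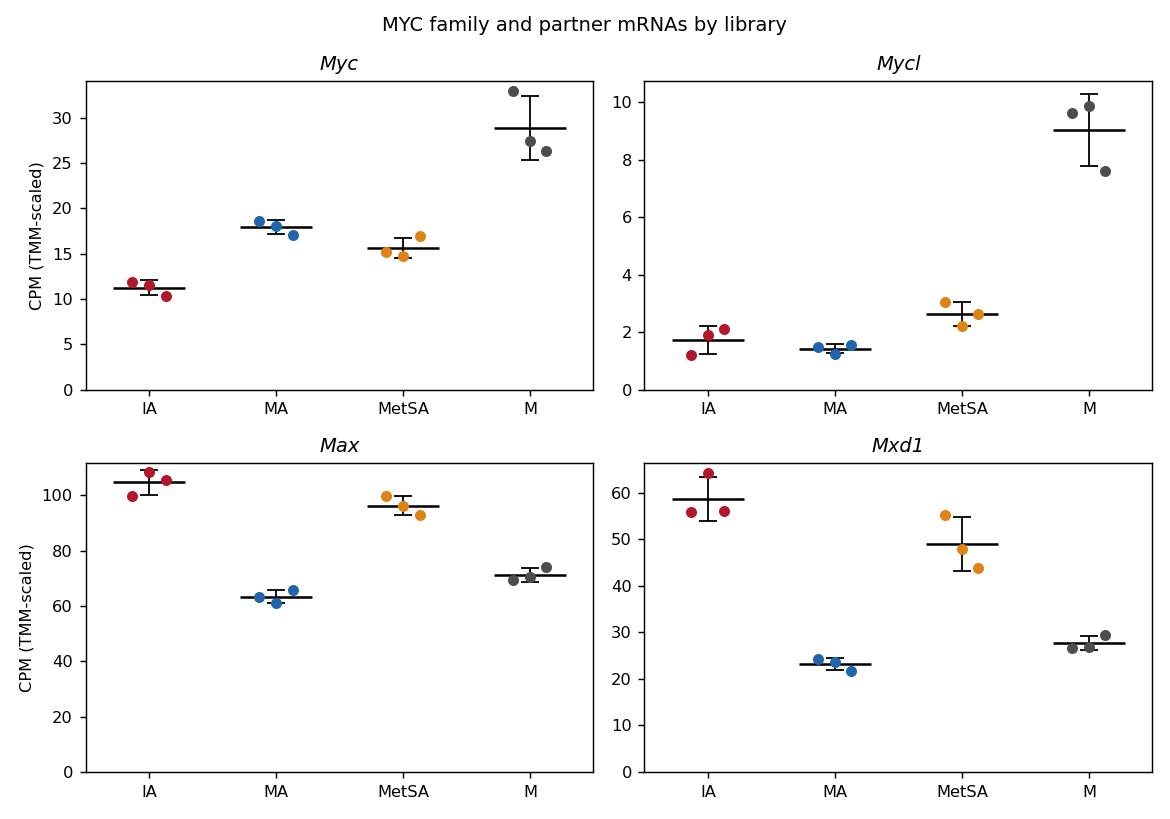
CPM of Myc, Mycl, Max and Mxd1 in each library (points, replicates 1 to 3 from left to right) by group, with the mean (horizontal line) and SD (error bar). Myc and Mycl are lower in every acid-treated library than in any M library, while Max and Mxd1 are higher in the IA and MetSA libraries, with Mxd1 at 43.7 CPM or more there against at most 29.3 CPM in M.

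Of the RNA polymerase I subunits, Polr1b, the second-largest subunit, had 16.4, 15.8 and 14.2 CPM in IA libraries, 21.5, 20.6 and 20.3 CPM in MA libraries and 16.8, 16.5 and 18.7 CPM in MetSA libraries, against 25.9, 22.9 and 22.2 CPM in M libraries. All acid-treated libraries lay below the M libraries, and the fall passed the test after IA (-0.61, SE 0.09, adjusted p = 2.04e-05) and MetSA (-0.45, adjusted p = 0.000891). After MA it was -0.19 (adjusted p = 0.153). Polr1a, the largest subunit, was called only after MetSA (-0.28, adjusted p = 0.0401), and that call was lost without IA replicate 3, MA replicate 1 or 3, MetSA replicate 2 or 3 or M replicate 1 or 2 (adjusted p 0.0517 to 0.218). Among 13 other RNA polymerase I factors, 2 fell and 2 rose after IA, none was called after MA and 1 rose after MetSA. After IA this was 15.4% in each direction, near the 17.3% and 17.9% of all genes. The 1 rise after MetSA was 7.69%, under the 12.6% of all genes. Polr1g, a polymerase subunit, was at -0.46 (adjusted p = 0.00436) and Taf1d, a promoter selectivity factor subunit, at -0.40 (adjusted p = 0.000776) after IA. Polr1h, a small polymerase subunit, was at 0.44 (adjusted p = 0.00879), a call lost without M replicate 1 (adjusted p = 0.0528) and, at 0.25, without scaling factors (adjusted p = 0.103). The other rise after IA was Ttf1, a termination factor of RNA polymerase I (0.18, adjusted p = 0.0492). Its call was lost without any 1 of the IA or MA replicates, MetSA replicate 1 or M replicate 1 or 3 (adjusted p 0.0548 to 0.170), and without scaling factors its value was -0.0041 (adjusted p = 0.967). The MetSA rise was also that of Polr1h (0.37, adjusted p = 0.0387), lost without MetSA replicate 1 or M replicate 1 or 2 (adjusted p 0.108 to 0.178).

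Nucleolar scaffold and regulator genes fell in 5 of 6 cases after IA, 1 of 6 after MA and 3 of 6 after MetSA. That was 83.3%, 16.7% and 50.0% of the group, beside 17.3%, 10.1% and 8.53% of all genes. The 16.7% after MA was 1 gene and near the share of all genes. Nolc1, a chaperone of small nucleolar ribonucleoproteins, was called after all 3 acids. It had 32.2, 33.9 and 31.8 CPM in IA libraries, 35.5, 36.6 and 37.6 CPM in MA libraries and 36.3, 36.9 and 41.3 CPM in MetSA libraries, against 47.6, 46.9 and 44.1 CPM in M libraries. No acid-treated library overlapped the M libraries, with log2 fold changes of -0.50 after IA (adjusted p = 1.02e-05), -0.34 after MA (adjusted p = 0.0012) and -0.27 after MetSA (adjusted p = 0.00653). Gnl3, nucleostemin, a nucleolar GTPase of proliferating cells, had 19.2, 17.3 and 17.2 CPM in IA libraries, 26.7, 23.5 and 25.5 CPM in MA libraries and 19.8, 17.3 and 22.4 CPM in MetSA libraries, against 26.2, 29.2 and 28.6 CPM in M libraries. It fell after IA (-0.65, adjusted p = 1.97e-05) and MetSA (-0.50, adjusted p = 0.000565), whereas MA libraries overlapped those in M (-0.15, adjusted p = 0.296).

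Ncl, nucleolin, had the highest level of the 40 genes, a mean of 361 CPM in M libraries. Its values were 308, 315 and 323 CPM in IA libraries, 401, 370 and 401 CPM in MA libraries and 314, 317 and 353 CPM in MetSA libraries, against 356, 380 and 346 CPM in M libraries. IA libraries lay just below the M libraries, and the log2 fold change of -0.19 (SE 0.06, adjusted p = 0.0191) lost its call without IA replicate 1, 2 or 3 or M replicate 2 (adjusted p 0.0542 to 0.0961). Npm1, nucleophosmin, had a like value after IA (-0.20, adjusted p = 0.0267), lost without IA replicate 1 or 3 or M replicate 2 or 3 (adjusted p 0.0890 to 0.140), and 12.7% of its 100-base stretches also occur in other genes, so its counts are uncertain. Per length, Npm1 had the highest level in M libraries, 80.6 CPM per kb, and Wdr12 the lowest, 1.52 CPM per kb, around a median of 8.38 CPM per kb. Mybbp1a, a MYB-binding repressor, fell after IA (-0.26, adjusted p = 0.0114) and MetSA (-0.30, adjusted p = 0.00683). Leaving out IA replicate 3 or M replicate 1 lost its IA call (adjusted p up to 0.0898), and leaving out M replicate 1 its MetSA call (adjusted p = 0.0539). Ddx21, a nucleolar helicase, was called after no acid (-0.08, -0.04 and -0.14 after IA, MA and MetSA).

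Of the small nucleolar ribonucleoprotein genes, all 3 listed as box C/D and all 4 listed as box H/ACA fell after IA, with median log2 fold changes of -0.63 and -0.76. The box C/D group here is not the whole class, as Rrp9 was counted with the small subunit factors and Snu13 with a wider list of such factors. After MA 2 of the 3 and 1 of the 4 fell, and after MetSA 3 of the 3 and 3 of the 4. Of all genes tested, 17.3%, 10.1% and 8.53% fell after IA, MA and MetSA. Gar1 (ENSMUSG00000028010, chromosome 3, 129824912 to 129831396), a core protein of the box H/ACA particles that guide pseudouridylation, had 4.66, 5.53 and 4.28 CPM in IA libraries, 7.38, 7.85 and 7.20 CPM in MA libraries and 7.10, 6.74 and 6.36 CPM in MetSA libraries, against 9.73, 8.89 and 10.97 CPM in M libraries. The IA libraries were below all others and the M libraries above all others. The log2 fold change was -1.03 after IA (SE 0.13, adjusted p = 3.03e-06), -0.55 after MetSA (SE 0.12, adjusted p = 0.00321) and -0.40 after MA (SE 0.12, adjusted p = 0.0268). The MA call was lost without MA replicate 1 or 3 or M replicate 1 or 3 (adjusted p 0.0571 to 0.133).

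Dkc1 (ENSMUSG00000031403, chromosome X, 75095854 to 75109777), the pseudouridine synthase of the same particles, stood at 12.3, 13.5 and 11.2 CPM in IA libraries, 21.6, 18.7 and 20.6 CPM in MA libraries and 15.2, 15.5 and 18.6 CPM in MetSA libraries, against 24.2, 23.6 and 21.4 CPM in M libraries. IA libraries were below all others, MetSA libraries lay between, and MA libraries overlapped those in M. Dkc1 fell after IA (-0.90, SE 0.10, adjusted p = 7.97e-07) and MetSA (-0.49, SE 0.10, adjusted p = 0.00116), and was at -0.19 after MA (adjusted p = 0.219). Nhp2, another core protein, fell after IA (-0.61, adjusted p = 0.000162) and MetSA (-0.33, adjusted p = 0.0349), the MetSA call being lost without IA replicate 3 or replicate 2 or 3 of MetSA or M (adjusted p up to 0.172). Nop10, the smallest of the core proteins, was called after IA only (-0.55, SE 0.17, adjusted p = 0.0206), a call lost without IA replicate 1 or 3 or M replicate 2 or 3 (adjusted p up to 0.0940).

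Of the box C/D proteins, which serve the methylation of ribosomal RNA, Nop56, a scaffold, had 34.5, 31.0 and 30.1 CPM in IA libraries, 37.1, 37.5 and 37.4 CPM in MA libraries and 36.9, 34.6 and 37.8 CPM in MetSA libraries, against 53.5, 46.3 and 48.0 CPM in M libraries. All 9 acid-treated libraries were below the M libraries, with log2 fold changes of -0.63 after IA (SE 0.07, adjusted p = 1.36e-06), -0.40 after MA (adjusted p = 0.000443) and -0.43 after MetSA (adjusted p = 0.000181). Nop58, its partner, was at -0.68, -0.35 and -0.38 after IA, MA and MetSA, all called, the MA call being lost without MA replicate 2 or M replicate 2 (adjusted p up to 0.0778). Fbl, fibrillarin, the methyltransferase, fell after IA (-0.46) and MetSA (-0.35) and was at -0.19 after MA (adjusted p = 0.0799). Nop56 and Fbl share 11.6% and 15.3% of their 100-base stretches with other genes, so their counts are uncertain.

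**Figure D3:**
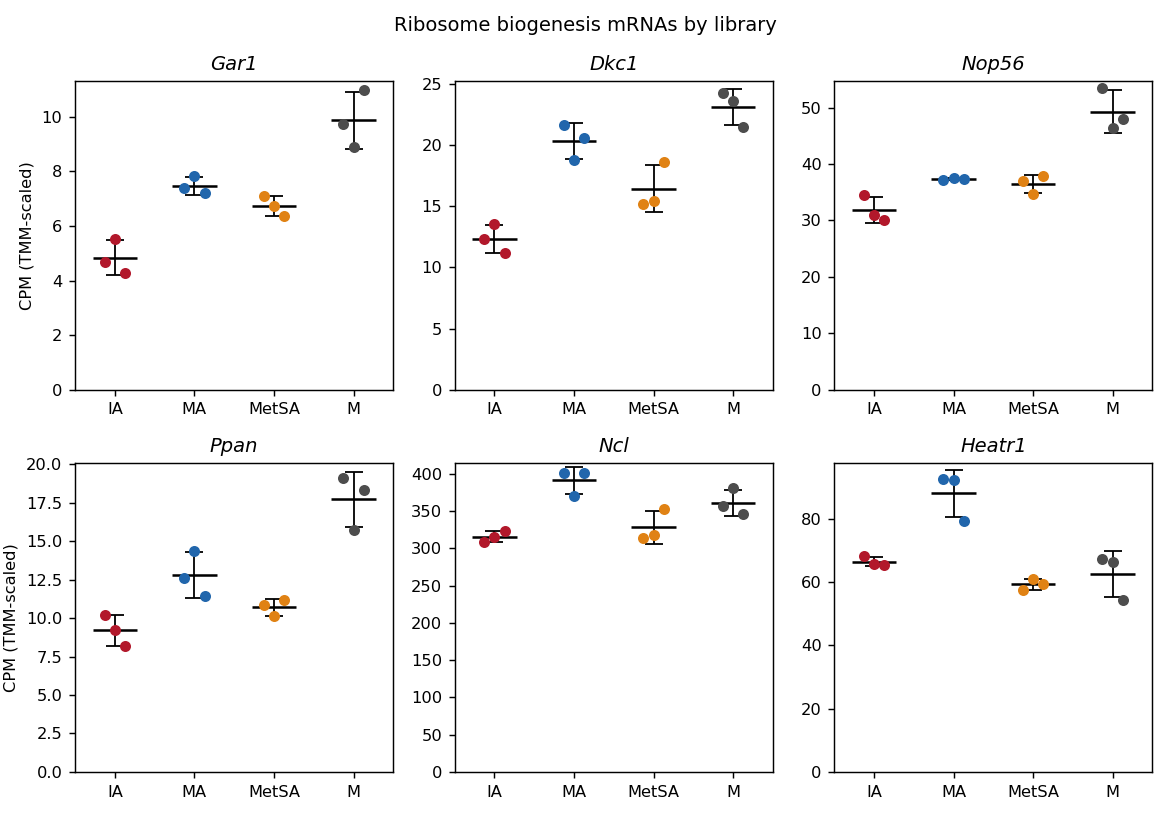
CPM in each library (points, replicates 1 to 3 from left to right) of Gar1, Dkc1, Nop56, Ppan, Ncl and Heatr1 by group, with the mean (horizontal line) and SD (error bar). Gar1 and Dkc1 are lowest in the IA libraries, and Heatr1 is highest in the MA libraries.

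Of the 10 small subunit factors, 4 were lower after IA and 4 after MetSA, beside 17.3% and 8.53% of all genes. After MA 1 was lower and 1 higher, near the 10.1% of all genes in each direction. Nat10, which acetylates cytidines of the small subunit RNA, had 20.8, 19.9 and 18.7 CPM in IA libraries, 27.6, 26.7 and 24.4 CPM in MA libraries and 18.8, 19.5 and 17.2 CPM in MetSA libraries, against 30.4, 28.9 and 24.4 CPM in M libraries. IA and MetSA libraries were below all M libraries and MA libraries overlapped them. The log2 fold change was -0.49 after IA (adjusted p = 0.000247), -0.59 after MetSA (SE 0.09, adjusted p = 7.04e-05) and -0.09 after MA (adjusted p = 0.578). Rrp12, which serves export of pre-ribosomes from the nucleus, was at -0.45 after IA (adjusted p = 0.0127) and -0.62 after MetSA (adjusted p = 0.00227), the IA call being lost without IA replicate 3 or M replicate 1 (adjusted p up to 0.0998). Utp20, a scaffold of the small subunit processome, was called only after MetSA (-0.44, adjusted p = 0.0151), which was lost without M replicate 1 or 2 (adjusted p up to 0.0701). With the replicate number as a block, Utp20 was also called after IA (-0.26, adjusted p = 0.00697).

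Heatr1 (ENSMUSG00000050244, chromosome 13, 12395027 to 12440289), a processome protein also needed for RNA polymerase I transcription, was the 1 gene of the 40 that rose. It had 68.2, 65.7 and 65.4 CPM in IA libraries, 92.5, 92.1 and 79.3 CPM in MA libraries and 57.5, 60.9 and 59.3 CPM in MetSA libraries, against 67.2, 66.2 and 54.3 CPM in M libraries. MA libraries were above all others, and IA and MetSA libraries overlapped those in M. The log2 fold change was 0.49 after MA (SE 0.08, adjusted p = 0.000105), against 0.09 after IA (adjusted p = 0.42) and -0.08 after MetSA (adjusted p = 0.543). Wdr43 (ENSMUSG00000041057, chromosome 17, 71615895 to 71659031), a processome protein of the same early particle, went the other way after MA.

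Wdr43 had 49.6, 54.98 and 53.4 CPM in IA libraries, 42.2, 41.1 and 41.3 CPM in MA libraries and 51.5, 48.2 and 47.6 CPM in MetSA libraries, against 52.0, 48.2 and 46.05 CPM in M libraries. MA libraries were below all others and the rest overlapped. It fell after MA (-0.23, SE 0.07, adjusted p = 0.0164), a call lost without MA replicate 2 or 3 or M replicate 1 (adjusted p 0.0520 to 0.0942). Rrp9, a protein of the box C/D particle that directs the first cuts of the precursor, was called after IA only (-0.46, SE 0.15, adjusted p = 0.0251), a call lost without IA replicate 2 or M replicate 1 or 2 (adjusted p up to 0.148). Noc4l, Ltv1 and Nob1, the last an endonuclease of late small subunit maturation, passed the test after no acid. Nob1 was called with the replicate block after IA (-0.28, adjusted p = 0.0297) and after MetSA (-0.31, adjusted p = 0.0236). Among 46 other small subunit factors, 8 fell and 4 rose after IA, 3 fell and 1 rose after MA, and 8 fell after MetSA, with medians of -0.15, -0.06 and -0.07. The share lower was 17.4% after IA and 6.52% after MA, near or under the 17.3% and 10.1% of all genes, and 17.4% after MetSA, beside 8.53%. With the replicate block, 13 fell and 5 rose after IA. Wdr46 (-0.69), Utp25 (-0.49) and Utp11 (-0.35), all processome proteins, fell after IA, and the helicase Ddx52 rose (0.36), at 0.17 and not called without scaling factors (adjusted p = 0.0727). The MetSA count was 5 without MetSA replicate 2 or 3, 3 without M replicate 1 and 4 without M replicate 2, and the higher count after IA was 2 without IA replicate 2 or M replicate 2.

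Large subunit factors fell in 9 of 14 cases after IA, 5 after MA and 7 after MetSA. That was 64.3%, 35.7% and 50.0% of the group, beside 17.3%, 10.1% and 8.53% of all genes. Ppan, whose yeast counterparts act in early large subunit assembly, had 10.2, 9.22 and 8.18 CPM in IA libraries, 12.6, 14.4 and 11.4 CPM in MA libraries and 10.8, 10.1 and 11.2 CPM in MetSA libraries, against 19.1, 15.7 and 18.3 CPM in M libraries. All acid-treated libraries were below the M libraries, at -0.95 after IA (SE 0.11, adjusted p = 1.96e-06), -0.72 after MetSA (adjusted p = 7.49e-05) and -0.47 after MA (adjusted p = 0.00455). Grwd1, a histone-binding protein whose yeast counterpart escorts a ribosomal protein, had 12.3, 9.42 and 10.04 CPM in IA libraries, 15.2, 13.01 and 14.4 CPM in MA libraries and 11.8, 9.92 and 12.3 CPM in MetSA libraries, against 19.6, 17.6 and 16.9 CPM in M libraries. Again no acid-treated library overlapped the M libraries, at -0.77 after IA (SE 0.11, adjusted p = 2.67e-05), -0.67 after MetSA (adjusted p = 0.00021) and -0.35 after MA (adjusted p = 0.035). The MA call of Grwd1 was lost without IA replicate 3, MA replicate 2 or 3 or M replicate 1 or 2 (adjusted p 0.0548 to 0.154).

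Rrp1b, a nucleolar protein that binds chromatin and pre-ribosomes, had 13.8, 11.7 and 10.8 CPM in IA libraries, 18.4, 18.2 and 14.2 CPM in MA libraries and 11.2, 11.7 and 12.4 CPM in MetSA libraries, against 19.0, 15.8 and 16.8 CPM in M libraries. IA and MetSA libraries were below every M library, and MA libraries overlapped them, at -0.51 after IA (SE 0.12, adjusted p = 0.00179), -0.55 after MetSA (SE 0.12, adjusted p = 0.00177) and -0.02 after MA (adjusted p = 0.93). Of the trimer of PES1, BOP1 and WDR12, Wdr12 fell after IA (-0.41, SE 0.10, adjusted p = 0.00303), Bop1 was at -0.17 (adjusted p = 0.0757) and Pes1 at 0.07 (adjusted p = 0.451), differences between genes that were not tested. Bop1 was called after MA (-0.27, adjusted p = 0.0136) but lost without MA replicate 3 or M replicate 1 (adjusted p up to 0.0712), and its MetSA call (-0.21, adjusted p = 0.0456) was lost in 10 of the 12 fits that each left out 1 library, all but those without MetSA replicate 3 or M replicate 2 (adjusted p up to 0.205).

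Rrs1 and Nop16, both nucleolar assembly factors, fell after IA (-0.62 and -0.59) and MetSA (-0.30 and -0.45), the MetSA call of Rrs1 being lost without MetSA replicate 1 or 2 or M replicate 1 or 2 (adjusted p up to 0.126). Mrto4 and Nip7 were called after IA only (-0.40 and -0.23), though with the replicate block Mrto4 was also called after MetSA (-0.32, adjusted p = 0.0494). The IA call of Mrto4 was lost without IA replicate 3 or M replicate 2 (adjusted p up to 0.0912). The Nip7 call was lost in 8 of the 12 fits that each left out 1 library, all but those without IA replicate 1, MA replicate 3 or MetSA replicate 1 or 3 (adjusted p up to 0.225). Noc2l was called after MA only (-0.23, adjusted p = 0.0134), lost without MA replicate 2 or M replicate 1 (adjusted p up to 0.0904). Noc3l, its partner, and the helicase Ddx18 were called after no acid, and Noc2l and Ddx18 share 17.5% and 34.6% of their sequence with other genes.

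Among 48 other large subunit factors, 16 fell and 3 rose after IA, 2 fell and 1 rose after MA, and 5 fell and 2 rose after MetSA. The share lower was 33.3% after IA, 4.17% after MA and 10.4% after MetSA, beside 17.3%, 10.1% and 8.53% of all genes. Ccdc86, a nucleolar protein, rose after IA (1.19, SE 0.09, adjusted p = 4.36e-09) and MetSA (0.87, SE 0.09, adjusted p = 6.5e-07) and was at 0.06 after MA, with 16.3% of its sequence shared with another gene. Nol12, an RNA-binding nucleolar protein, fell after IA (-0.58, adjusted p = 0.000108). The IA count of lower genes was 10 without IA replicate 1, 7 without IA replicate 3 and 9 without M replicate 1, and the MetSA count was 1 without M replicate 1 and 3 without IA replicate 3, MetSA replicate 2 or M replicate 2.

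Against medium, 8 of the 40 genes were lower after all 3 acids (Myc, Nolc1, Nop56, Nop58, Gar1, Nop2, Grwd1 and Ppan), comparisons that share the M libraries. A further 12 were lower after IA and MetSA and not called after MA, 7 after IA alone, 2 after MetSA alone and 2 after MA alone, and 1 (Bop1) after MA and MetSA. Ddx21, Noc4l, Ltv1, Nob1, Pes1, Ddx18 and Noc3l were called after none. By mean CPM, IA gave the lowest level of 26 of the 40 genes and M the highest of 33, and the order IA, MetSA, MA, M from low to high held for 21. Of all genes tested, 17.3% were lower after IA, 10.1% after MA and 8.53% after MetSA. The share of all genes with each joint pattern or order is not given, so these cannot be called particular to the 40 genes.

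The acids were compared with each other at the same dose and time, in 3 pairs, with p-values adjusted over all genes within each pair. Between IA and its saturated counterpart MetSA, 3 of the 40 genes were lower after IA and none higher, where 2.15% of all genes were lower and 3.97% higher, 6.12% in either direction. These were Myc (-0.48, 95% interval -0.68 to -0.27, adjusted p = 0.0074), Gar1 (-0.48, interval -0.75 to -0.21, adjusted p = 0.0327) and Dkc1 (-0.41, interval -0.62 to -0.20, adjusted p = 0.021). The Myc call was lost without IA replicate 3 (-0.40, adjusted p = 0.0576). The Dkc1 call was lost without IA replicate 1 or 3 or MetSA replicate 3 (adjusted p 0.0694 to 0.129), and the Gar1 call without IA replicate 1 or 3 or MetSA replicate 1 or 2 (adjusted p 0.0775 to 0.163). No gene of the 40 was called without IA replicate 3, 1 without IA replicate 1, and at most 4 over the fits that each left out 1 library. For the other 37 genes the 95% intervals of the difference ran from -0.63 (Nop10) to 0.45 (Rrp12), and 33 of them lay within 0.5 of 0 on the log2 scale.

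Between IA and MA, 20 of the 40 genes were lower after IA and 1 was higher, where 16.8% of all genes were lower and 17.8% higher, 34.6% in either direction. Dkc1 (-0.72, adjusted p = 1.2e-05), Myc (-0.67, interval -0.88 to -0.46, adjusted p = 2.05e-05), Gnl3 (-0.50, adjusted p = 0.000316), Heatr1 (-0.40, adjusted p = 0.0004) and Ncl (-0.31, adjusted p = 0.000533) were lower after IA, and Wdr43 was higher (0.34, adjusted p = 0.000387). Among the partners, Mxd1 was higher after IA than after MA (1.34, adjusted p = 3.62e-10), as was Max (0.72, adjusted p = 1.02e-08), while Mycl did not pass the test (0.28, adjusted p = 0.351). With the replicate block, Rrp12 (-0.29, adjusted p = 0.0492) and Tsr1 (-0.29, adjusted p = 0.0453) were also called lower and Noc2l higher (0.16, adjusted p = 0.0236). The 19 genes not called without the block had intervals from -0.68 (Nop10) to 0.38 (Noc4l), 15 of them within 0.5 of 0.

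Between MA and MetSA, 10 of the 40 genes were higher after MA and 1 was lower, where 11.6% of all genes were higher and 14.7% lower, 26.4% in either direction. Heatr1 (0.57, SE 0.08, adjusted p = 1.12e-05), Nat10 (0.50, adjusted p = 0.000244), Rrp1b (0.52, adjusted p = 0.00172), Ncl (0.25, adjusted p = 0.00402) and Gnl3 (0.35, adjusted p = 0.00836) were higher after MA, and Wdr43 was lower (-0.24, adjusted p = 0.00957). The Gnl3 call was lost without MetSA replicate 2 (adjusted p = 0.0579) and the Wdr43 call without MetSA replicate 1 (adjusted p = 0.0542), and the count of 11 was 6 without MA replicate 1 and 7 without MA replicate 3. Myc was not called (0.20, interval -0.01 to 0.40, adjusted p = 0.156), whereas Mycl was lower after MA (-0.88, adjusted p = 0.00354). The 29 genes not called had intervals from -0.35 (Noc4l) to 0.51 (Nop16), 28 of them within 0.5 of 0.

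**Figure D4:**
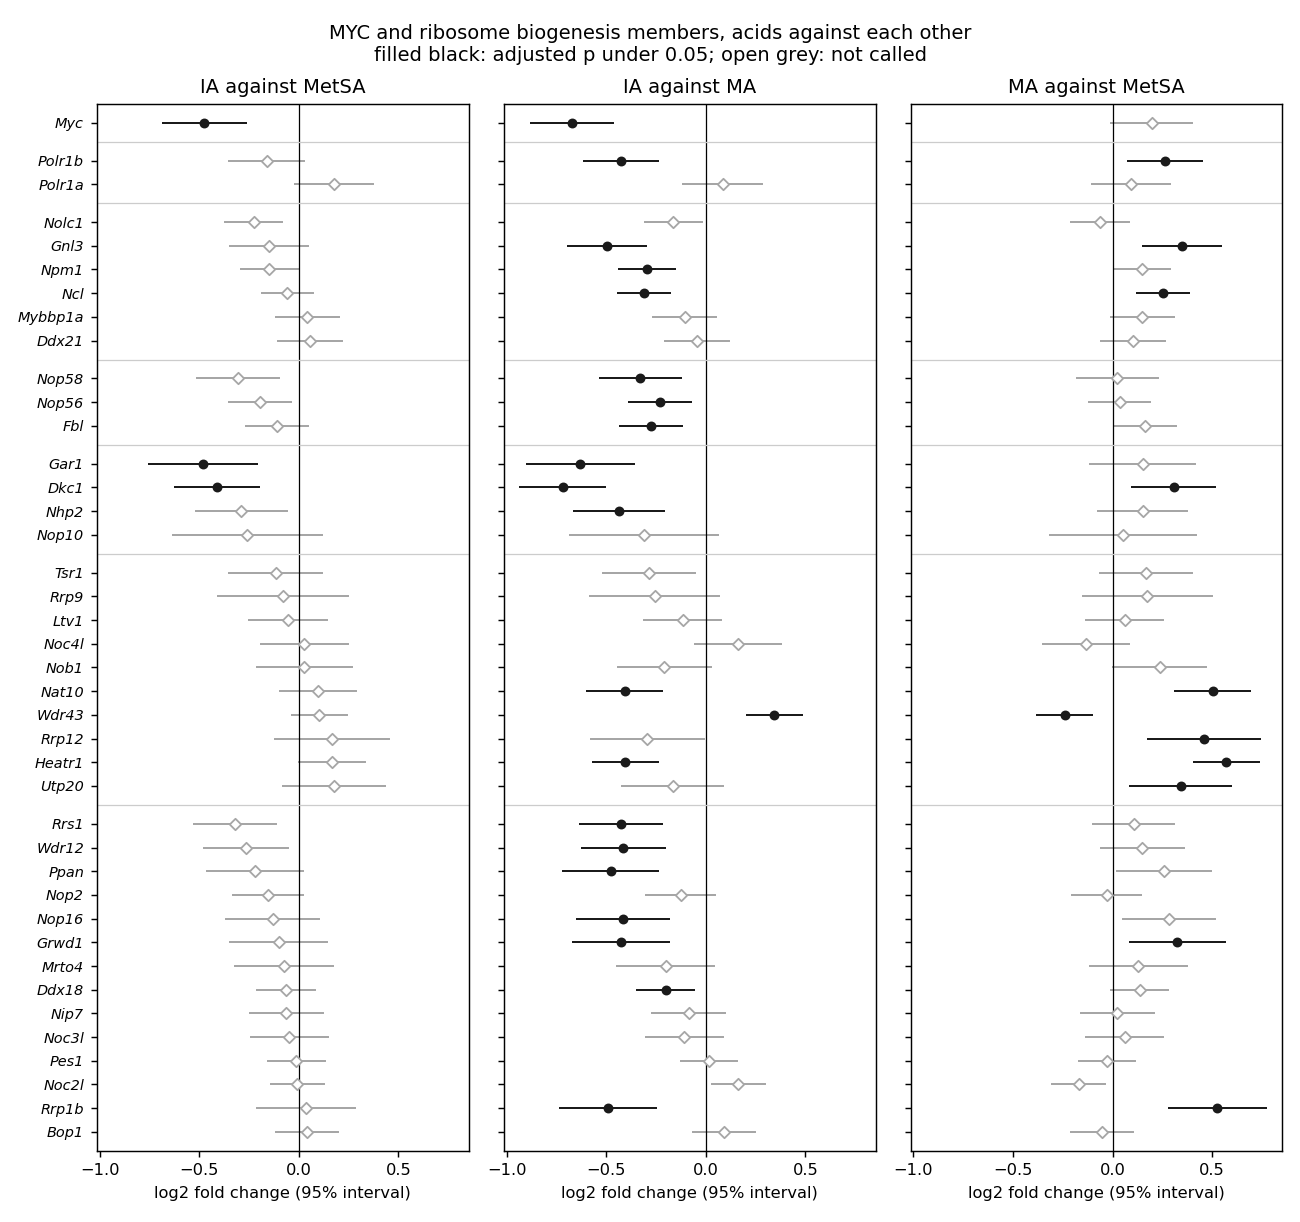
Log2 difference of each of the 40 genes between acids (x axis), for IA against MetSA, IA against MA and MA against MetSA, ordered by role (y axis), with 95% intervals, filled where called and open where not. Filled points number 3, 21 and 11, and Wdr43 and Heatr1 stand on opposite sides of 0 in both comparisons with MA.

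The E-box CACGTG, the motif bound by MYC and MAX dimers, was searched in the promoter windows of RefSeq (GRCm38.p6), 250 bases before to 50 after each gene's start. The motif is a palindrome and reads the same on both strands. Of the 34 members with a window, 8 (23.5%) held it, where 8.09% of 27025 symbols with a window did. Of these 8 genes 4 fell after IA, as did 18 of the 26 without it. The 30 bases around each match are shown on the gene's strand, 5′ to 3′ and with the motif in capitals, so that the sites of called and uncalled genes can be compared; a match is a description and not a binding site. The first 4 fell after IA and the last 4 were not called after IA.
Nop2, chr6:125131811-125131840, plus strand: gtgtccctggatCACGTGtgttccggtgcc
Grwd1, chr7:45830740-45830769, minus strand: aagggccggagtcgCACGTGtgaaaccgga
Mybbp1a, chr11:72441347-72441376, plus strand: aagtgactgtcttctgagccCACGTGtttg
Tsr1, chr11:74898092-74898121, plus strand: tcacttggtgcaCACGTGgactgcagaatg
Ltv1, chr10:13193092-13193121, minus strand: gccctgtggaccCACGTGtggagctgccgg
Utp20, chr10:88826765-88826794, minus strand: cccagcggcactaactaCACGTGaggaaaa
Pes1, chr11:3963965-3963994, plus strand: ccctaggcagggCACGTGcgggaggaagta
Wdr43, chr17:71616220-71616249, plus strand: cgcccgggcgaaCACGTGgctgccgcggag
In Nop2, an RNA methyltransferase of the large subunit, the match lies before the start, its first base at -60. In the other 7 it lies after the start, the first base at 3 to 41. Nop2 fell after IA (-0.42, adjusted p = 0.000566), MA (-0.29, adjusted p = 0.0158) and MetSA (-0.26, adjusted p = 0.0294). The MA call was lost without MA replicate 2 or M replicate 1 (adjusted p up to 0.115) and the MetSA call without MetSA replicate 1 or 2 or M replicate 1 (adjusted p up to 0.197). Also lower after IA was Tsr1, a late small subunit factor (-0.45, adjusted p = 0.00328), of which 22.0% is shared with other genes.

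Genes known as MYC targets but acting outside the nucleolus fell in 27 of 40 cases and rose in 5 after IA. After MA 10 fell and 1 rose, and after MetSA 21 fell and 3 rose. Their median log2 fold changes were -0.32, -0.14 and -0.21 after IA, MA and MetSA. Of all genes tested, 17.3%, 10.1% and 8.53% fell and 17.9%, 10.1% and 12.6% rose. In the main test the targets' share lower was above that of all genes after each acid, and their share higher was below it. Srm, spermidine synthase, had 7.13, 8.21 and 6.50 CPM in IA libraries, 11.05, 9.42 and 13.7 CPM in MA libraries and 8.38, 8.46 and 8.90 CPM in MetSA libraries, against 16.6, 14.9 and 15.2 CPM in M libraries. All acid-treated libraries were below the M libraries, at -1.09 after IA (SE 0.13, adjusted p = 1.37e-06), -0.45 after MA (adjusted p = 0.0132) and -0.86 after MetSA (adjusted p = 4.28e-05). Ccnd2, cyclin D2, went the other way, with 126, 141 and 140 CPM in IA libraries, 19.5, 21.7 and 20.7 CPM in MA libraries and 98.7, 86.3 and 62.6 CPM in MetSA libraries, against 38.1, 39.95 and 39.6 CPM in M libraries. The groups did not overlap, and it rose after IA (1.79, SE 0.13, adjusted p = 1.32e-07) and MetSA (1.07, SE 0.12, adjusted p = 3.01e-05) and fell after MA (-0.93, SE 0.13, adjusted p = 0.000146). Mthfd2, a mitochondrial folate enzyme, had the same signs, 0.87 after IA, -0.48 after MA and 0.42 after MetSA, all called. The MA call of Srm was lost without MA replicate 1 or 2 or M replicate 1 (adjusted p up to 0.0929). The MA count of lower targets was 5 without MA replicate 1 and 4 without MA replicate 2 or M replicate 1.

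Most genes of the ribosomal proteins themselves did not pass the test. Of 79 cytosolic ribosomal protein genes, 9 fell after IA, 3 fell after MetSA and 1 rose after MA, with medians of -0.11, -0.01 and 0.03 after IA, MetSA and MA. The share lower after IA was 11.4%, under the 17.3% of all genes, and after MetSA it was 3.80%, under 8.53%. The rise after MA was 1.27%, under 10.1%. Rpl3 (-0.54) and Rpl12 (-0.43) of the large subunit and Rps2 (-0.30) of the small subunit fell after IA. These share 28.8%, 14.2% and 30.2% of their sequence with other genes, mostly copies, so the values are uncertain. The IA count was 5 without IA replicate 1 or M replicate 3 and 15 without M replicate 1, and the MetSA count was 2 without MetSA replicate 2. The gene that rose after MA was Rpl7a of the large subunit (0.19, SE 0.06), named after its value was seen, with 28.1% of its sequence shared. Its call was lost without IA replicate 1 or 2, any 1 of the MA replicates, MetSA replicate 2 or M replicate 1 or 2 (adjusted p 0.0510 to 0.260). DNA replication and mitosis genes, listed as a measure of proliferation, fell in 23 of 25 cases after IA, 19 after MA and 24 after MetSA, with medians of -0.99, -0.51 and -0.56. These were 92.0%, 76.0% and 96.0% of the list, beside 17.3%, 10.1% and 8.53% of all genes. Top2a, which untangles replicated DNA, fell after each acid (-1.03, -0.40 and -0.58 after IA, MA and MetSA). Their part in the change of the ribosome biogenesis genes was not tested.

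**Figure D5:**
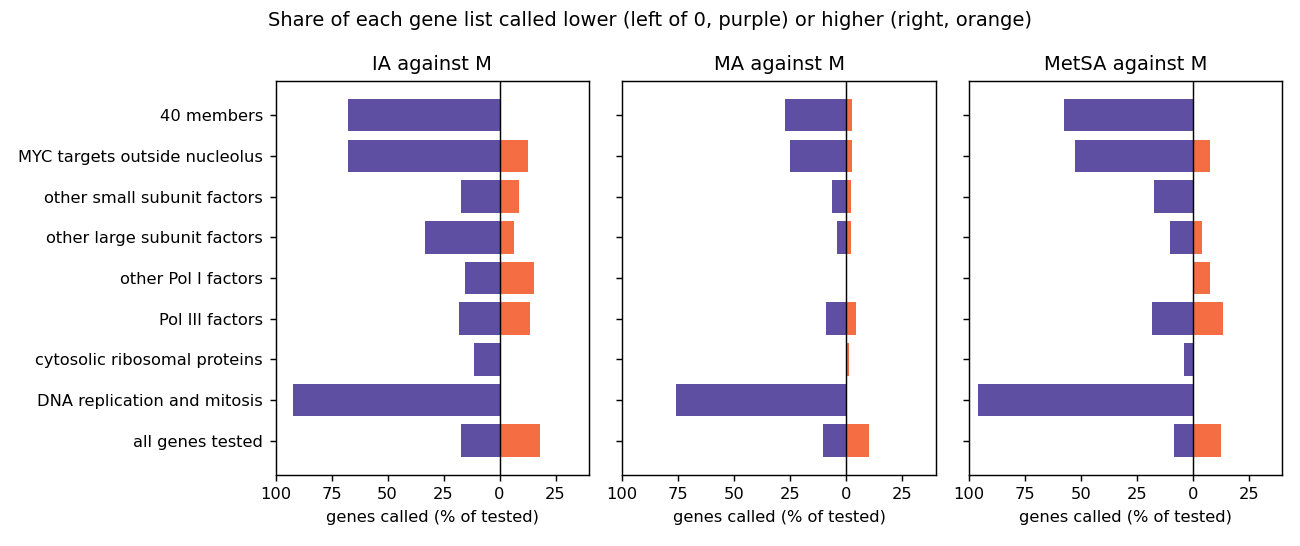
Percent of the tested genes of each list called lower (bars left of 0) and higher (bars right of 0) after each acid against medium, for the 40 genes, 7 wider lists and all genes tested. After IA, 67.5% of the 40 genes were lower, against 11.4% of cytosolic ribosomal protein genes and 17.3% of all genes.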

How the data were processed

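Poly(A)-selected RNA of 12 libraries was sequenced. The authors deposited a table of raw read counts, whole numbers with no normalisation. The submitters' processing notes name the tools STAR and featureCounts and mouse build mm10, without versions or settings. The strand of the libraries is not stated. Of counts from 1 to 9, 66.1% were even, against 50.9% of the highest counts, so both mates of a read pair may have been counted.

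Groups were read from the sample titles. Genes were kept by filterByExpr (14113, holding 99.98% of counts), scaled by TMM and tested with edgeR 4.0.16 in R 4.3.3, by the quasi-likelihood test on 1 fit of 4 groups with 8 residual degrees of freedom, on adjusted p under 0.05. CPM are scaled by TMM, and ± gives SDs. The procedure was tested on simulated data. Sequence shared with other genes was measured in stretches of 100 bases of GENCODE vM21 transcripts, and counts of genes with 10% or more are uncertain. Deviations of same-numbered libraries from their group means had correlations of 0.00399 to 0.305, with 12 of 18 above 0.1, against 0 of 36 for different numbers. All 3 pairs were above 0.1 for IA with M (lowest 0.117) and IA with MA (lowest 0.101), so the numbers may pair these libraries, judged from the data and not the labels. The main tests of all comparisons were unpaired and did not use the numbers. With the replicate number as a block, 29 of the 40 genes were lower for IA against M, where the main test gave 27. For IA against MA 22 were lower and 2 higher with the block, where the main test gave 20 and 1. Members and lists were chosen with earlier results of these data known. Named in full were Myc, the 5 called genes with the smallest adjusted p in each comparison and up to 3 called against its main direction, and from wider lists the 3 with the smallest adjusted p after IA and 2 called against the list's median. Other genes were named after their values were seen. Alternatives were other scalings, filters, DESeq2 1.42.0, pairwise fits, a replicate block, halved counts and leaving out each library.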

Additional observations from a re-analysis of the deposited data

How the results depend on the processing

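Over 21 alternative fits, 60 of the 97 calls among the 40 genes were kept in every fit, none reversed, and 112 of the 126 counts of called genes stayed within 1.5 times the main count. The main counts were 27, 12 and 23 after IA, MA and MetSA against M, 3 for IA against MetSA, 21 for IA against MA and 11 for MA against MetSA. The count for IA against MetSA was 6 with upper-quartile scaling, 10 with no scaling factors, 5 with DESeq2, 5 without a filter, 5 with a replicate block (Nolc1 and Rrs1 added) and 1 in a fit of those groups alone. With no scaling factors it was 35 for IA against MA and 18 for MA against MetSA. Leaving out 1 library at a time gave 20 to 29 for IA, 6 to 14 for MA and 16 to 24 for MetSA against M, 0 to 4 for IA against MetSA, 18 to 23 for IA against MA and 6 to 12 for MA against MetSA. Against M, the replicate block gave 29, 12 and 25 after IA, MA and MetSA. For IA against MA it gave 24 and for MA against MetSA 13, and no call among the 40 genes was lost with the block in any of the 6 comparisons. In the 4 comparisons other than IA against M and IA against MA, 1 or 2 of the 3 same-numbered pairs were above 0.1. The highest correlations were also among them, 0.305 for MA with MetSA replicate 2 and 0.287 for MA with M replicate 3. As 12 of 12 libraries correlated best with their own number, pairing is possible there too, and the labels do not state it. Without scaling factors, the median of all genes moved by -0.19 for IA against M, -0.12 for MetSA against M and -0.15 for IA against MA, and the 40 genes' median relative to it stayed at -0.40, -0.29 and -0.24. The share of calls that were higher, over all genes, was 50.9% for IA against M with TMM, 34.8% with upper-quartile scaling and 21.6% without scaling factors, and for MetSA against M 59.7%, 42.2% and 29.5%. With no scaling factors 28 ribosomal protein genes fell after IA, and 31 other small subunit factors. The cause of these differences was not tested. The lowest count of any of the 40 genes in a library was 203 (Gar1). Replicates differed by more than counting error, so depth was not the only limit on precision.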

Other observations

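RNA polymerase III, which makes transfer RNA and the smallest ribosomal RNA, was followed through 11 subunit genes and 11 genes of its transcription factors and repressor. After IA 4 of the 22 genes fell and 3 rose, after MA 2 fell and 1 rose, and after MetSA 4 fell and 3 rose, with medians of -0.10, -0.04 and -0.11. The shares lower, 18.2% after IA and 9.09% after MA, were near the 17.3% and 10.1% of all genes, and the 18.2% after MetSA stood beside 8.53%. Of the 11 subunits alone, 2 fell and 3 rose after IA, none was called after MA, and 2 fell and 3 rose after MetSA, with medians of 0.08, -0.04 and 0.0041. Polr3g, a subunit known from proliferating and stem cells, fell after IA (-0.99, SE 0.12, adjusted p = 3.14e-06, edgeR's quasi-likelihood test) and MetSA (-0.89, SE 0.12, adjusted p = 2.09e-05) and was at -0.06 after MA (adjusted p = 0.777). Polr3b, the second-largest subunit, rose after IA (0.47, adjusted p = 2.45e-05) and MetSA (0.30, adjusted p = 0.00365). With the replicate number as a block, 5 of the 22 genes fell and 6 rose after IA. The count of higher genes after IA was 1 without IA replicate 2 or M replicate 2.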
